A study of Nematostella vectensis with 27 samples.

Results

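Dense runs of neighbouring accessible peaks were described in the sea anemone Nematostella vectensis. A run was a chain of 15 or more peaks in which the starts of consecutive peaks lay 1000 bp or less apart. In the list of accessible regions for the series, 285 runs held 5605 of the 112673 peaks on the 15 chromosomes, or 4.97%. The list held 112728 peaks in all, and the longest chain outside the chromosomes had 5 peaks. The members were chosen by the starts of the peaks, so the number, size, length and spacing of the runs are descriptions and carry no test.

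Accessible chromatin was profiled in single nuclei to describe gene regulation by cell type. The ATAC libraries of whole wild-type adults were 16 fixed and 1 fresh, from 2 to 4 pooled polyps each. Whole wild-type gastrulae gave 1 fixed and 1 fresh ATAC library, from 300 pooled embryos at 26 hours after fertilization. Neurons sorted by fluorescence from NvElav1::mOrange transgenic polyps, in which a reporter marks elav-positive neurons, gave 2 fixed and 3 fresh ATAC libraries. Fresh adults gave 1 multiome ATAC library and 1 multiome RNA library, and adults gave 1 further 5′ single-cell RNA library. The list analysed here belongs to the whole series, and the sources used here do not state which libraries entered it. The list has no column for library, cell type, strand or height. A run may therefore join peaks that were never open in the same cells, and stages, tissues and fixation could not be compared. Read depth is unknown for every library.

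ATAC-seq marks chromatin that the Tn5 transposase can reach, mainly promoters and enhancers bound by transcription factors. Nematostella is a cnidarian with stinging cells, a nerve net and a small genome for an animal, and its genes carry promoter and enhancer marks much like those of flies and vertebrates. In other animals, crowded groups of accessible elements often lie at genes with elaborate patterns of expression, such as developmental regulators. Genes are given here by the numbered symbols of the RefSeq genes of jaNemVect1.1, a table without product names. No function is assigned to any of them. Run positions are those of the peak list, which names no build, counted from 1. Gene positions were joined to it after each sequence had been matched to a chromosome of the table by its peaks at gene ends.

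The largest run had 43 peaks in 18.9 kb, from base 5900071 to 5918937 of chromosome 10. All 43 were centred inside LOC5521983, a gene of 28.6 kb, and none lay within 500 bp of an end of a protein-coding gene. The run filled the middle of its host, since the host began before the first peak and continued past the last. The second run had 40 peaks in 17.9 kb, from base 14122641 to 14140524 of chromosome 7, and lay inside LOC5507882, a gene of 37.9 kb. It too had no peak at a gene end. In both, the runs broke off at intervals only a little over the joining distance: the next peak started 1.28 kb before and 1.46 kb after the run on chromosome 10, and 1.25 kb before and 1.47 kb after that on chromosome 7.

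The longest run, 19.8 kb with 39 peaks, spanned bases 15878466 to 15898314 of chromosome 4 and crossed an end of LOC5516107, a gene of 27.6 kb. Of its 39 peaks, 35 were centred in that gene. On chromosome 6, a run of 38 peaks in 14.9 kb lay at bases 11764824 to 11779740, inside LOC116618074, a gene of 87.7 kb. The same run covered 2 small genes whole, LOC5512033 with a span of 2.05 kb and LOC5512053 with 2.07 kb. It had 12 peaks at gene ends, the most of any run. Its spacing, a median of 324 bp, was the closest among the 10 runs with the most peaks.

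Other large runs surrounded a small gene or lay mostly between genes. A run of 35 peaks at bases 12832152 to 12847080 of chromosome 9 touched only LOC5506788, a gene of 3.45 kb, with 12 peaks before it, 9 inside it and 14 after it. Likewise, a run of 35 peaks at bases 1043118 to 1056478 of chromosome 5 put 14 peaks before LOC5502564, a gene of 2.78 kb, 7 inside it and 14 after it. It also touched an end of LOC116610133. On chromosome 2, a run of 36 peaks at bases 5039956 to 5057693 covered LOC5505691, of 2.38 kb, with 16 peaks before it, 4 inside it and 16 after it. That run reached LOC116613503 and LOC5505679 at its edges. In these 3 runs the accessible peaks lay in nearly equal numbers on both sides of the small gene and mostly outside it.

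The remaining 3 of the 10 runs with the most peaks met gene ends. The run of 36 peaks at bases 11051584 to 11065880 of chromosome 9 crossed the junction of LOC116614942 and LOC116614941, with 8 peaks centred in one and 27 in the other. It was the most isolated of the 10: the nearest peaks outside it started 14.9 kb before its first peak and 12.6 kb after its last. The run of 35 peaks at bases 5088482 to 5103875 of chromosome 12 had 3 peaks inside LOC116612347, a gene of 2.67 kb, and the others outside any protein-coding gene. The run of 33 peaks at bases 12869868 to 12886098 of chromosome 1 touched LOC116620093 and LOC5515942, and 27 of its peaks were centred in the second.

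**Figure D1:**
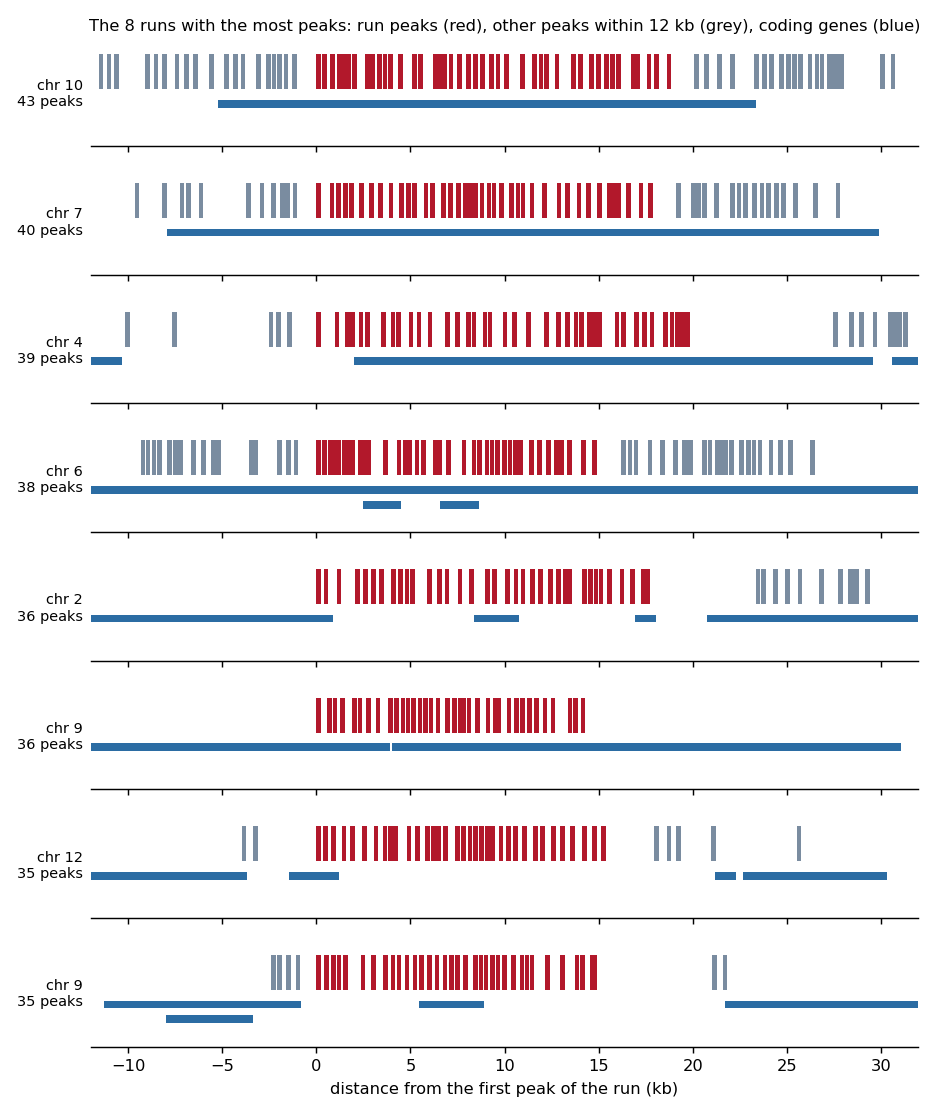
The 8 runs with the most peaks, aligned at the first peak (horizontal axis, distance in kb). Red bars are the peaks of the run, grey bars are other peaks within 12 kb, and blue bars are protein-coding genes. The run with 36 peaks on chromosome 9 has no other peak within 12 kb, while runs on chromosomes 10, 7 and 6 lie inside a longer gene.

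Over all 285 runs, the number of peaks had a median of 17, with an interquartile range of 16 to 22. Runs of 15 to 17 peaks made up 144 of them, 102 runs had 20 or more, and 23 had 30 or more. Length ranged from 5.60 to 19.8 kb, with a median of 8.22 kb. Together the runs spanned 2.55 Mb, or 0.950% of the 268 Mb of chromosomes. Inside a run the median density was 21.9 peaks per 10 kb, against 4.20 per 10 kb over all chromosomes. Density dropped at the edges by construction: the 10 kb next to a run held a median of 5 peaks over 570 flanks.

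The number of runs was compared with closed-form expectations, which assume how peaks are placed. The 285 runs compare with 0.0356 expected if peaks were placed uniformly at the density of each chromosome. Requiring a minimum spacing of 150 bp lowered the expectation to 0.0132. When each peak joined its neighbour independently at the share observed on its chromosome, 21.3 runs were expected, and with the share of each 1 Mb window, an expectation added after seeing the data, 30.1. The share of close neighbours in a chromosome or in a 1 Mb window thus gave fewer long runs than the list held, by a factor of 13.4 for the first and 9.46 for the second. Close spacings followed one another along the sequence more often than these expectations give.

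**Figure D2:**
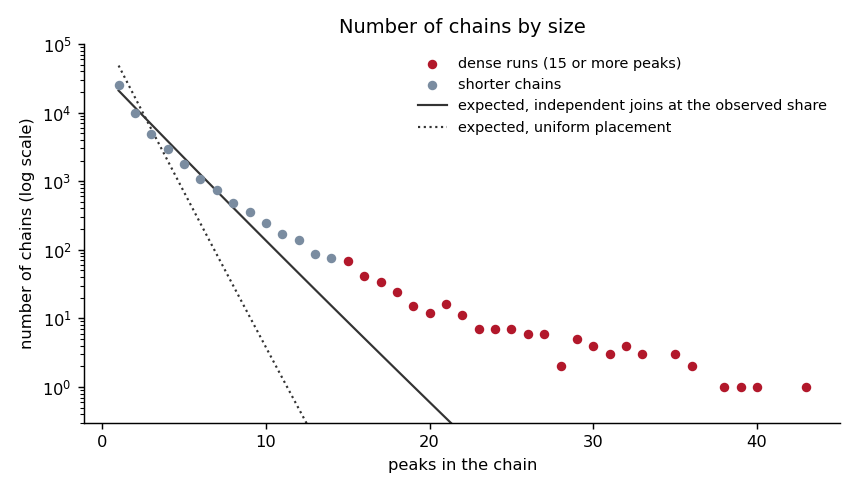
Number of chains (vertical axis, log scale) by the number of peaks in the chain. Points are counts in the list, the solid line is the expectation for independent joins at the observed share of close neighbours, and the dotted line that for uniform placement. Chains of 7 to 33 peaks are more frequent in the list than the solid line gives at each size, and the largest has 43 peaks.

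Peaks within runs were spaced at a median of 422 bp from start to start, with quartiles of 313 and 584 bp over 5320 spacings. In chains of 2 to 14 peaks, the 58902 spacings had a median of 466 bp and quartiles of 316 and 661 bp. The lower quartiles nearly coincided, and the runs differed mainly in having fewer wide spacings: 10.5% of spacings in runs exceeded 750 bp, against 16.6% in shorter chains. Neighbouring peaks overlapped in 327 pairs in runs, or 6.15%, against 10.4% in shorter chains. In classes of 100 bp, the commonest spacing was 300 to 400 bp, with 24.6% of spacings in runs and 17.9% in shorter chains. In shorter chains 200 to 300 bp held nearly as many, 17.8%. In finer classes the highest share was at 275 to 300 bp in runs (7.88%) and at 250 to 275 bp in shorter chains (5.69%). A run was therefore a series of separate 250-bp peaks with short gaps rather than a pile of overlapping ones. Peaks covered a median of 54.4% of a run, from 41.8% to 68.7%.

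Median spacing per run ranged from 306.5 to 643.5 bp. The 3 runs with the smallest median spacing were small ones. They were a run of 15 peaks on chromosome 6 at bases 481729 to 487337, with 306.5 bp, one of 18 peaks on chromosome 4 at bases 10726678 to 10733507, with 310 bp, and one of 15 peaks on chromosome 3 at bases 1463893 to 1469511, with 312.5 bp. The first touched no protein-coding gene, the second touched LOC5513689 and the last LOC5517053. The step from an edge to the next peak had a median of 1889 bp over the 570 edges. It was under 1.5 kb in 210 of them (36.8%) and over 5 kb in 19.3%. The 68 runs of exactly 15 peaks had a median length of 6.86 kb and a median spacing of 431.5 bp, and the 75 chains of exactly 14 peaks had 6.42 kb and 426 bp. Their peaks were intergenic in 27.9% and 19.1% and inside genes in 56.2% and 63.5%.

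Runs occurred on all 15 chromosomes, but unevenly. Chromosome 1 had the most, 38 runs with 7.94% of its peaks, or 17.1 runs per 10 Mb. It was followed in density by chromosome 10 with 16.3 runs per 10 Mb, chromosome 3 with 15.9 and chromosome 2 with 14.1. Chromosome 15 had 3 runs and 47 run peaks, or 2.19 runs per 10 Mb and 0.851% of its peaks, and chromosome 8 had 7 runs, or 4.03 per 10 Mb. Chromosomes with more peaks per Mb had more runs per 10 Mb, with a Spearman's rho of 0.81 over 15 chromosomes, and the rho with protein-coding genes per Mb was 0.78. Both are descriptions, since the runs are made of the peaks counted. The 2 orders were not the same. Chromosome 5 had the lowest density, 357 peaks per Mb, and 8.42 runs per 10 Mb. Chromosomes 8, 11, 12 and 15 had more peaks per Mb, at 378, 380, 366 and 403. These chromosomes had fewer runs per 10 Mb, at 4.03, 6.09, 6.18 and 2.19. The largest run of chromosome 15 had 16 peaks, against 25 to 43 on the other chromosomes.

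**Figure D3:**
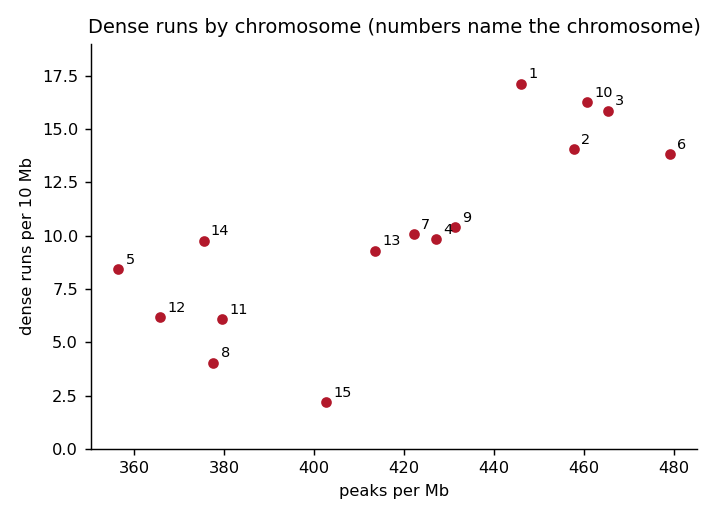
Dense runs per 10 Mb (vertical axis) and peaks per Mb (horizontal axis) on each of the 15 chromosomes, which are numbered. Chromosomes 1, 10 and 3 have 17.1, 16.3 and 15.9 runs per 10 Mb, and chromosome 15 has 2.19.

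Some runs lay near each other. Taking runs within 10 kb of each other as a group gave 17 groups with 35 runs. The only group of 3 runs spanned 41.8 kb of chromosome 10, from base 6461902 to 6503657, held 60 run peaks and touched LOC5521960 and LOC5521959. A pair of runs with 60 peaks spanned 25.3 kb at LOC116618074 on chromosome 6. Another pair with 59 peaks spanned 28.0 kb at LOC5521983 on chromosome 10 and included the largest run of the list. Runs were about as far from chromosome tips as peaks in general: the median distance to the nearer tip was 0.268 of the chromosome for runs and 0.273 for all peaks. The outermost 5% of sequence at each tip held 9 runs, or 3.16%, and 5.07% of all peaks.

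The genes spanned were examined next, for which the rule had used no information. Of the 285 runs, 276 (96.8%) touched a protein-coding gene. Averaged over every possible position of runs of these lengths on the same chromosomes, 86.0% would. A single gene was touched by 167 runs, 2 genes by 92, 3 genes by 16 and 4 genes by 1. The mean was 1.41 genes per run, against 1.39 over all positions. With all annotated genes, 98.9% of runs touched a gene, against 90.2% over all positions, and the means were 1.78 and 2.02 genes. These differences were not tested. Chains of 8 to 14 peaks had the same direction, with 93.5% touching a gene against 81.2% over all positions.

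Runs fell into 5 arrangements. In 126 (44.2%) the run overlapped gene ends but neither covered a gene nor lay inside one. In 70 (24.6%) it covered at least 1 gene whole. In 69 (24.2%) it lay inside a single gene and covered none, in 11 (3.86%) it lay inside a gene and covered another, and 9 (3.16%) touched no protein-coding gene. Runs that covered a gene or did so inside another tended to be larger, with medians of 19 and 24 peaks, against 17 in the other arrangements. Median lengths were 9.06 and 9.98 kb in these, against 8.01 kb in runs that overlapped gene ends only and 7.85 kb in runs inside a gene that covered none. The part of length in this order was not tested. The share lying inside 1 gene, 28.1%, was close to the 29.7% over all positions. For chains of 8 to 14 peaks it was 24.2%, against 43.9% over all positions. The share covering a gene whole was 28.4% in runs, against 19.9% over all positions, and 11.3% in chains of 8 to 14 peaks, against 5.23%.

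The 87 genes covered whole were small, with a median span of 2.39 kb and an interquartile range of 1.94 to 3.56 kb. Over all positions of a run, the genes covered would have had a median span of 2.76 kb. They had a median of 5 peaks inside, and their runs had a median of 14 outside. Over these gene and run pairs, 27.8% of the run peaks were centred in the gene, which made up 29.2% of the length, so peaks were no denser in the gene than beside it. The 5 covered genes with the most run peaks inside were LOC5515016 and LOC116619556 with 23 each, LOC5502729 and LOC5502507 with 14 each, and LOC5506937 with 12.

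The position of covered genes along their runs was also counted. The centre of the gene fell between 0.333 and 0.667 of the run length for 53 of the 87 genes, or 60.9%, against 51.5% if every position inside the run were equally likely for a gene of that size. For the 21 genes that were the only protein-coding gene touched by their run, the count was 17, or 81.0%, against 56.4%. These values were not tested, and the smaller group was singled out after the values were seen.

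The 80 runs inside a gene gave 82 pairs of run and host, with 78 host genes. Hosts were long, with a median span over the pairs of 30.8 kb and a range of 8.72 to 87.7 kb, which a gene must be to contain a run. The run took up a median of 27.6% of its host. Its nearer edge lay a median of 5.66 kb from the closer end of the host, and in 18 pairs (22.0%) within 2 kb. As a share of the room left in the host, the median distance of the nearer edge was 0.293.

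In all, 387 of 19206 protein-coding genes (2.01%) were touched by a run, of which 371 by 1 run and 16 by 2. The touched genes had a median span of 10.6 kb, against 6.18 kb for all genes. Over all positions of a run of mean length, touched genes would have had a median span of 10.4 kb. The gene with the most run peaks was LOC116618074 on chromosome 6, with 60 of its 93 peaks in 2 runs. Next were LOC5521983 on chromosome 10 with 52 of 57 peaks, LOC5521960 on chromosome 10 with 42 of 53, LOC5507882 on chromosome 7 with 40 of 65 and LOC5504762 on chromosome 14 with 37 of 47. Runs took up 80.6% of the span of LOC5521983 but 27.4% of that of LOC116618074.

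Then came LOC5518173 on chromosome 5 with 36 of 74 peaks in runs, LOC5516107 on chromosome 4 with 35 of 38, LOC5515709 on chromosome 2 with 35 of 119, and LOC5512598 on chromosome 3 and LOC5510655 on chromosome 1 with 32 each. In LOC5515709, which had more peaks than any other of these 20 genes, runs took up 20.9% of a span of 84.2 kb. The other 10 of the 20 genes with the most run peaks had 26 to 31 each. They were LOC5504265, LOC5515109, LOC5520088, LOC5522303, LOC5515942, LOC116614941, LOC5517139, LOC5511206, LOC5513634 and LOC5521468. In LOC5520088, on chromosome 3, all 29 peaks of the gene belonged to 1 run that took up 90.9% of its span of 16.3 kb. LOC5515942 likewise had all of its 27 peaks in a run. Genes therefore ranged from those wholly filled by a run to long genes in which a run was one dense stretch among many peaks.

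Genes touched by a run had more annotated transcripts than untouched genes of the same span class, except in the class under 5 kb. The comparison was added after the counts were seen and made within each chromosome, with an exact permutation test that flips the sign of each chromosome (2-sided) and Benjamini-Hochberg adjustment over 4 span classes. Chromosomes are not biological replicates, so this and the tests that follow describe this list and annotation, not the variation between animals. From 30 kb upward, 49 touched genes averaged 6.43 ± 2.25 transcripts and untouched genes 3.58 ± 0.480 (SD, n = 15 chromosomes). The mean difference was 2.85, positive on 14 of 15 chromosomes (exact sign-flip permutation, adjusted p = 0.000977).

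From 15 to 30 kb, 89 touched genes averaged 3.87 ± 1.14 transcripts and untouched genes 2.59 ± 0.261 (SD, n = 14 chromosomes with such genes), and the difference of 1.28 was positive on 13 (exact sign-flip permutation, adjusted p = 0.000977). From 5 to 15 kb, the means were 2.02 ± 0.464 and 1.70 ± 0.0995, with a difference of 0.32 that was positive on 11 of 14 chromosomes (exact sign-flip permutation, adjusted p = 0.0241). Spans were not matched within this class: the median was 9.89 kb for touched genes and 8.25 kb for untouched genes. Under 5 kb they were 1.12 ± 0.169 and 1.18 ± 0.0270, with a difference of -0.07 (exact sign-flip permutation, adjusted p = 0.167). With runs of 20 or more peaks the classes of 5 to 15 kb and 15 to 30 kb no longer passed (adjusted p = 0.0609 and 0.177), where over the alternatives the adjusted p ranged from 8.14e-05 to those values. Of the genes covered whole, 89.7% had a single transcript, against 86.5% of untouched genes under 5 kb. Of the hosts with a run inside, 5.13% had a single transcript, against 37.9% of untouched genes of 15 to 30 kb and 29.6% of longer ones. Annotated transcript number also depends on how much RNA evidence a gene has, whose part in the result was not tested. Touched genes also held more peaks than untouched genes: medians of 42 and 14 from 30 kb upward, 23 and 7 from 15 to 30 kb, and 10 and 3 from 5 to 15 kb. Genes at shorter chains were not compared, so whether the transcript difference is particular to runs was not tested.

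**Figure D4:**
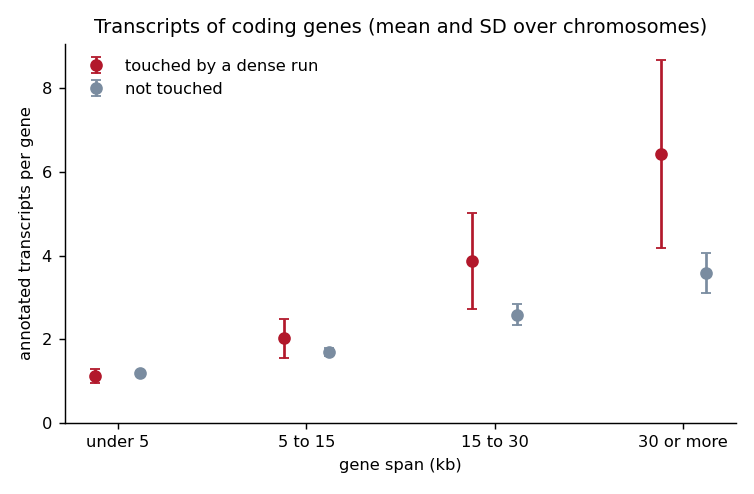
Annotated transcripts per protein-coding gene (vertical axis) by gene span (horizontal axis, kb). Points are means over chromosomes and bars the SD, for genes touched by a dense run (red) and untouched genes (grey). The means are 6.43 and 3.58 from 30 kb upward and 1.12 and 1.18 under 5 kb.

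Peaks in runs lay at gene ends less often than peaks in shorter chains. A peak counted as at a gene end if its centre was within 500 bp of either end of a protein-coding gene, since the table gives no strand. The share was 14.9% ± 4.33 of run peaks and 29.1% ± 2.35 of peaks in chains of 2 to 14 (SD, n = 15 chromosomes). The run share was the lower one on all 15 chromosomes, by -14.2 ± 3.79 percentage points (exact sign-flip permutation, p = 6.1e-05, the smallest it can give; adjusted p = 0.000153 over 5 measures). The difference was -9.00 points against chains of 8 to 14 and -9.36 points with a 200-bp window, and both passed (exact sign-flip permutation, adjusted p = 0.00061 at most over all alternatives). Over all peaks pooled, 868 of 5605 run peaks (15.5%) and 24011 of 81638 peaks in shorter chains were at gene ends. The median run had 3 such peaks, and 67 runs (23.5%) had none. Sequence within 500 bp of a gene end made up 15.2% of the runs, 28.1% of the shorter chains and 12.2% of the chromosomes. In runs the share of peaks at gene ends was thus close to the share of sequence there, as it was in shorter chains, with 29.4% of peaks. Chains of many peaks are also long: the shortest run spanned 5.60 kb, while a chain of few peaks can lie wholly within 500 bp of a gene end. The part of chain length in the lower share of runs was not tested.

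The share at gene ends changed with chain size without a sharp step at 15 peaks. It was 19.2% for solitary peaks, 30.7% in chains of 2 to 4, 30.5% in chains of 5 to 7, 24.2% in chains of 8 to 14, 16.7% in runs of 15 to 19 and 14.1% in runs of 20 or more. The median distance from a run peak to the nearest gene end was 2.19 kb, against 1.16 kb in chains of 2 to 14 and 2.62 kb for solitary peaks. Peaks in runs and solitary peaks were thus both farther from gene ends than peaks in small chains. Every class still had a larger share at gene ends than the 12.2% of chromosome sequence that lay there.

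Run peaks were otherwise placed inside genes and between genes, but neither share passed the test. Inside genes and over 500 bp from their ends lay 59.6% ± 14.0 of run peaks and 51.6% ± 2.38 of peaks in shorter chains (SD, n = 15 chromosomes). The difference of 8.05 points was positive on 12 of 15 chromosomes (exact sign-flip permutation, adjusted p = 0.0519). Intergenic peaks made up 25.5% ± 10.2 of run peaks and 19.3% ± 2.14 of the others, a difference of 6.15 points, positive on 12 of 15 chromosomes (exact sign-flip permutation, adjusted p = 0.0528). The 3 shares sum to the whole, so the lower share at gene ends raises the sum of these 2. With peaks near gene ends counted too, 66.6% of run peaks were centred in a protein-coding gene. In shorter chains the share was 67.7%, and over all peaks 68.3% (peaks pooled over chromosomes). The whole share in genes was thus not higher in runs. Chromosome 8, with 7 runs, had 93.8% of its run peaks inside genes, and chromosome 15, with 3 runs, had 78.7%. Chromosome 12 had 36.9%, the lowest.

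**Figure D5:**
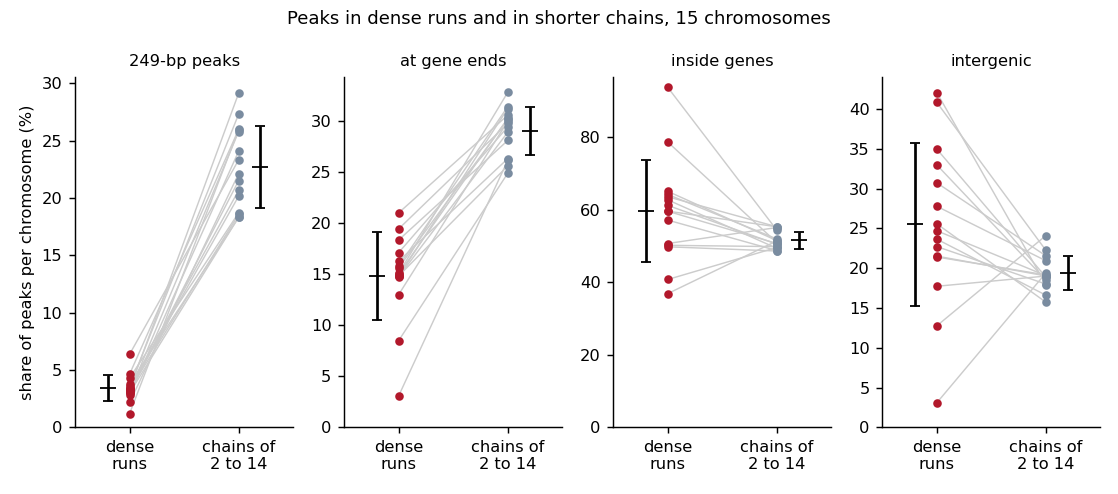
Share of peaks (vertical axes, percent) that are 249 bp long, at gene ends, inside genes or intergenic, for dense runs (red) and chains of 2 to 14 peaks (grey). Each point is 1 of 15 chromosomes, lines join the same chromosome, and black marks give the mean and SD. All 15 chromosomes lie lower in runs for the first 2 shares, and the last 2 shares overlap.

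Long non-coding RNA genes, which are transcribed but not annotated with a protein, were touched by 91 runs (31.9%). Over all positions of runs of the same lengths, 13.3% would touch one. Chains of 8 to 14 peaks touched one in 16.6%, against 8.83% over all positions. At least 1 such gene was covered whole by 44 runs (15.4%), against 6.98% over all positions. These differences were not tested. Counted by peaks, the share inside a long non-coding RNA gene and outside protein-coding genes was 3.97% ± 2.77 in runs and 2.94% ± 0.611 in chains of 2 to 14 (SD, n = 15 chromosomes), a difference of 1.03 points that did not pass (exact sign-flip permutation, adjusted p = 0.175). By contrast, 1 run touched a tRNA gene, or 0.351%, against 1.97% over all positions. Chains of 8 to 14 peaks had the same direction, with 1.21% against 1.69%. The tRNA values were not tested.

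Of the 9 runs that touched no protein-coding gene, 6 overlapped a long non-coding RNA gene, named here after their values were seen. The largest of the 9 had 27 peaks in 13.1 kb of chromosome 1, from base 12408257 to 12421350, touched no annotated gene, and lay 1.53 kb from LOC5517363. A run of 20 peaks on chromosome 2, at bases 7897999 to 7907327, covered or overlapped LOC116619283 and LOC125561088 and lay 3.24 kb from the protein-coding gene LOC5514356. A second run of 20 peaks, on chromosome 4 at bases 5088665 to 5098948, overlapped no annotated gene and lay 4.63 kb from LOC116618548. The nearest protein-coding gene was 0.483 to 6.71 kb from each of the 9. No run was thus more than 6.71 kb from a protein-coding gene, and these distances were not compared with those of other intergenic sequence.

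The list mixes peaks of 250 bp with peaks of 249 bp, and runs held few of the latter. Peaks of 249 bp made up 3.43% ± 1.15 of run peaks and 22.7% ± 3.58 of peaks in chains of 2 to 14 (SD, n = 15 chromosomes). On all 15 chromosomes the run share was lower, with a difference of -19.2 ± 3.85 points (exact sign-flip permutation, p = 6.1e-05, the smallest it can give; adjusted p = 0.000153). Only 182 of the 5605 run peaks were 249 bp long. In all, 141 runs (49.5%) had none, and no run had more than 3. The share fell steadily with chain size, from 50.4% of solitary peaks through 30.8% in chains of 2 to 4, 14.2% in chains of 5 to 7 and 6.73% in chains of 8 to 14, to 3.52% in runs of 15 to 19 and 2.94% in runs of 20 or more. Against chains of 8 to 14 alone, runs were lower by 3.38 points (exact sign-flip permutation, adjusted p = 0.000305, with a range of 0.000153 to 0.00061 over the alternatives). Of the sequence in runs, 45.6% lay outside any peak. How the peaks of each length were made is not given in the sources used here. The length of a peak is measured from its start, which the rule used. The test therefore cannot separate a trait of runs from their close spacing, and the part of the peak spacing in this difference was not tested.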

How the data were processed

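Single-nucleus ATAC-seq and RNA libraries of Nematostella vectensis were made by the authors. The submitters' processing notes name bcl2fastq, Cell Ranger ARC 2.0.1 and Cell Ranger 7.0.0. The analysis used 1 deposited peak list for the series, with 6 columns and no header. Per the file, its values are peak starts and ends, read as BED. The peak caller, threshold, build and pooling are not given in the sources used here, and depth is unknown.

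Sequences were matched to chromosomes of the gene table by how many peak centres lay within 500 bp of protein-coding gene ends, which was 22.2% to 29.7% for the best match and 13.5% to 16.1% for the next. Chains, closed-form expectations and exact averages over all positions of a run were computed with Python 3.11.15, numpy 2.4.6, pandas 2.3.3 and scipy 1.17.1, and checked on simulated lists. Shares of runs and of chains of 2 to 14 were compared within chromosomes by an exact sign-flip permutation test (2-sided, 32768 patterns), with Benjamini-Hochberg adjustment over 5 measures and a threshold of 0.05. The runs, the comparisons and the lists were chosen with earlier results of these data known. Named were the 10 runs with the most peaks and their genes, the 3 longest and 3 tightest runs, the 20 genes with the most run peaks, and the 5 such genes covered whole; other names are marked. GC content, promoters, motifs and gene families were not analysed here, for want of sequence, strand and product names.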

Additional observations from a re-analysis of the deposited data

How the results depend on the processing

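The number of runs follows from the 2 limits of the rule. There were 285 runs with 5605 peaks, against 3 runs with 55 peaks when neighbours joined within 500 bp, 108 with 2040 within 750 bp, 583 with 12336 within 1500 bp and 803 with 17636 within 2000 bp. A smallest size of 10 peaks gave 1001 runs with 13776 peaks, 20 peaks gave 102 with 2618, and 30 peaks gave 23 with 777. Measuring from the end of a peak to the next start gave 462 runs with 9259 peaks. The lower shares of 249-bp peaks (9 of 9 alternatives) and of peaks at gene ends (13 of 13) kept their direction and passed. The smallest were -3.38 and -9.00 points, both against chains of 8 to 14.

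The share inside genes and over 500 bp from their ends was higher in runs by 8.05 points. It passed with joining within 1500 bp (7.09), runs of 10 or more (4.98) and 1 value per run (8.43). It also passed without the largest run (7.83), with 250-bp peaks alone (9.47) and with all annotated genes (7.68). It did not pass, at 4.12 points, on chromosomes with 10 or more runs (chosen after seeing the data), at 5.64 with runs of 20 or more peaks or at 5.81 against chains of 8 to 14. Nor did it pass at 9.01 with joining within 750 bp or at 5.99 against all other peaks. Its adjusted p ranged from 0.00587 to 0.252 over the alternatives. The higher intergenic share, 6.15 points, passed with 1500 bp (5.57), 10 or more (5.40), 20 or more (9.75), 1 value per run (6.08), without the largest run (6.26), 250-bp peaks (7.11), a 1000-bp gene-end window (6.39), all annotated genes (5.46) and chromosomes with 10 or more runs (9.22). It did not pass against chains of 8 to 14 (3.18), with joining within 750 bp (7.45), against all other peaks (5.82) or with a 200-bp gene-end window (5.05). The adjusted p of the intergenic share ranged from 0.000814 to 0.354 over the alternatives (exact sign-flip permutation). The share in long non-coding RNA genes passed with 1500 bp (1.76), 10 or more (1.05) and chromosomes with 10 or more runs (1.61), and was 0.19 against chains of 8 to 14. With runs of 20 or more, the transcript differences were -0.13 under 5 kb, which then passed, and 0.53 from 5 to 15 kb and 0.87 from 15 to 30 kb, which did not. The cause was not tested. With all annotated genes, 98.9% of runs touched a gene and the mean was 1.78 genes per run, and with runs widened by 1000 bp it was 1.53. GC content and promoter overlap were not run. No paired analysis was possible because the list has no column for a library. A list of positions limits every statement to presence, not to the strength or the cell type of accessibility.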
